A study of Saccharomyces cerevisiae with 6 samples.

Results

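The retrograde response of budding yeast was examined through 10 genes, chosen by name from the 5656 genes of an array study of Tra1 mutants. They were 6 target genes (CIT1, CIT2, ACO1, IDH1, IDH2 and DLD3) and 4 regulator genes (RTG2, MKS1, RTG1 and RTG3). All 10 were measured, each by 1 probe set. The genes were picked because several targets stood among the larger differences between mutants and wild type. The mutant and wild-type values below are therefore descriptions, and no test is read from them. Total RNA of whole cells grown in YPD, a rich medium, without treatment was read on 6 one-colour Affymetrix arrays. The groups were M1 (2 arrays), M8 (2 arrays) and wild type, WT (2 arrays). M1 and M8 are mutants of TRA1 that are defective in the interaction with the activator Gal4. The sources used here give neither their amino acid changes nor the strain background. Nothing in the labels says that duplicates came from separate cultures, so the errors and p-values below cover the spread among these arrays alone, and this may be technical.

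The retrograde response carries a signal from damaged mitochondria to the nucleus and keeps up the supply of 2-oxoglutarate, the precursor of glutamate, when respiration fails. The transcription factors Rtg1 and Rtg3 bind target promoters as a pair, while phosphorylated Mks1 bound to 14-3-3 proteins holds Rtg3 in the cytoplasm. Rtg2 relieves that block by binding Mks1. Rtg2 is also a subunit of SLIK, a variant of the SAGA histone acetyltransferase complex, and Tra1 is the activator-binding scaffold shared by SAGA, SLIK and NuA4. Glutamate and glutamine, which rich medium supplies, keep the pathway low in wild-type cells.

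Over all probe sets, Pearson's r for pairs of arrays ran from 0.988 to 0.998. Duplicates differed by an SD over genes of 0.35 for M1, 0.14 for M8 and 0.20 for WT on the log2 scale, so M1 was the least precise group. Each SE below pools the spread of a gene over M1, M8 and WT, so a wide M1 gap also widens the SE of M8. TRA1 itself had log2 levels of 8.49 and 8.79 in M1 and 8.85 and 8.59 in M8, against 8.41 and 8.11 in WT, by the brightest of its 13 probe sets. That probe set differed from WT by 0.38 in M1 and 0.46 in M8, and the medians over all 13 were 0.19 and 0.16. These levels do not check the labels, since a mutant allele can still make its message. The labels name no mating type. Of 7 genes specific to MATa cells, 4 in M1 and 3 in M8 had both mutant arrays below both WT arrays, a pattern seen in 13.5% and 19.1% of all genes. Their median was -0.40 in M1 and -0.011 in M8. Of the 7, 1 in M1 and 3 in M8 had a mean above WT, and the differences ranged from -0.57 to 0.12 in M1 and from -0.59 to 0.031 in M8. Of 4 genes specific to MATalpha cells, 1 was lower and 1 higher in this way in M1, and 2 were lower and 1 higher in M8. Of 5 sporulation genes, 1 was lower and 2 higher in M1, and 2 were lower and 1 higher in M8. The higher pattern, both mutant arrays above both WT arrays, was seen in 22% of all genes in M1 and 29% in M8. The part of these marker genes in the results below was not tested. The arrays read bulk RNA, so a change in the share of cells in some state and a change per cell cannot be told apart.

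All 6 targets had higher mean levels in each mutant than in WT. The differences lay between 0.36 and 0.70 in M1, with a median of 0.48, and between 0.45 and 0.67 in M8, with a median of 0.54, all on the log2 scale. The medians over all 5656 genes were 0.012 and 0.029. Both M1 arrays lay above both WT arrays for 5 of the 6 targets, against 22% of all genes, and both M8 arrays did for 6 of 6, against 29%. All 4 mutant arrays lay above both WT arrays for 5 of the 6, against 11.9% of all genes. These counts describe genes that were chosen on this comparison. M1 and M8 share the WT arrays, so a low reading there enters both differences. The 4 regulators had medians of -0.077 in M1 and -0.068 in M8.

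**Figure D1:**
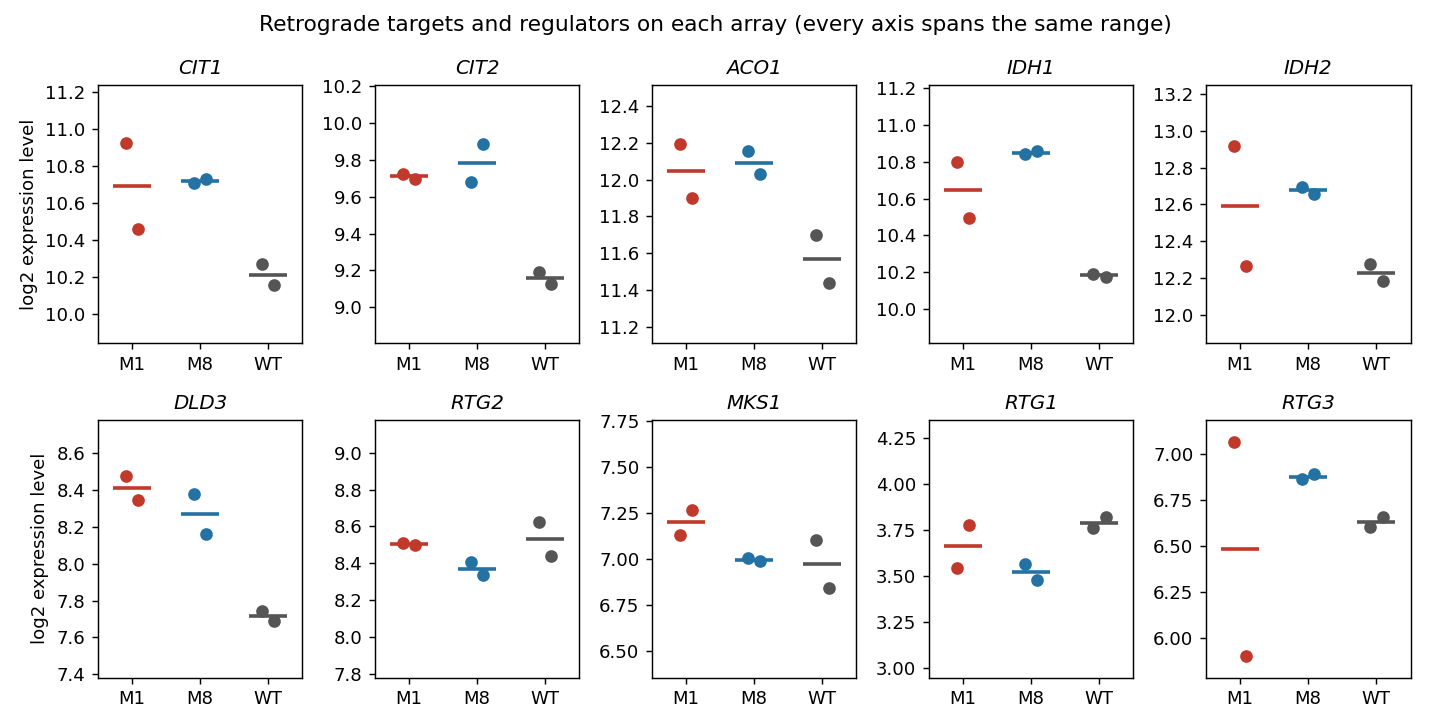
Log2 expression level of each gene (y axis, all panels spanning the same range) on each array, with M1, M8 and WT from left to right; points are arrays and bars are means of 2 arrays. The target panels show mutant points above the WT points except for 1 M1 array of IDH2 at 12.27, whereas the regulator panels show no common direction.

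CIT2 (YCR005C) encodes the peroxisomal citrate synthase of the glyoxylate cycle and is the gene most often used to read out the retrograde response. Its log2 level was 9.72 and 9.70 on the M1 arrays and 9.68 and 9.89 on the M8 arrays, against 9.19 and 9.13 on the WT arrays. The mutant arrays stood together above WT, and the gap between the M1 duplicates was smaller than that of most genes. CIT2 exceeded WT by 0.55 (SE 0.12, n = 2 each) in M1 and by 0.63 (SE 0.12) in M8, which is 1.47-fold and 1.54-fold. Those differences ranked 35 and 20 from the top of 5656 genes.

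DLD3 (YEL071W) encodes a cytosolic enzyme that oxidises D-2-hydroxyglutarate to 2-oxoglutarate while reducing pyruvate to lactate. It had levels of 8.47 and 8.35 in M1 and of 8.38 and 8.16 in M8, against 7.74 and 7.69 in WT. All 4 mutant arrays lay above both WT arrays. Its difference of 0.70 (SE 0.12, 1.62-fold) in M1 was the largest of the 10 genes in that mutant, at rank 16 of 5656, and in M8 it was 0.56 (SE 0.12, 1.47-fold).

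CIT1, ACO1, IDH1 and IDH2 encode the mitochondrial enzymes that lead from acetyl-CoA and oxaloacetate to 2-oxoglutarate. Their transcription depends on the Hap2/3/4/5 complex in respiring cells and on the Rtg proteins when respiration is reduced. CIT1 (YNR001C), the mitochondrial citrate synthase gene, had 10.93 and 10.46 in M1 and 10.71 and 10.73 in M8, against 10.27 and 10.15 in WT. No mutant array overlapped WT, but the M1 arrays stood 0.47 apart, and the distance above WT was 0.48 in M1 and 0.51 in M8 (SE 0.16 for each). ACO1 (YLR304C), the aconitase gene, had 12.19 and 11.90 in M1 and 12.15 and 12.03 in M8, against 11.70 and 11.44 in WT. Again no mutant array reached down to WT. ACO1 differed by 0.48 (SE 0.15) and 0.52 (SE 0.15) in M1 and M8.

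IDH1 and IDH2 encode the subunits of the NAD-dependent isocitrate dehydrogenase, of which Idh1 is regulatory and Idh2 catalytic. IDH1 (YNL037C) had 10.80 and 10.49 in M1 and 10.84 and 10.86 in M8, against 10.19 and 10.18 in WT. The WT and M8 duplicates were each nearly identical, and all mutant arrays lay above WT. The difference was 0.46 (SE 0.13, 1.38-fold) in M1 and 0.67 (SE 0.13, 1.59-fold) in M8, where IDH1 ranked 13 of 5656, the highest rank among the 10 genes in M8. IDH2 (YOR136W) had 12.91 and 12.27 in M1 and 12.70 and 12.66 in M8, against 12.28 and 12.18 in WT. Its second M1 array lay between the WT arrays, so IDH2 was the target whose M1 and WT groups overlapped. Its difference was 0.36 in M1 and 0.45 in M8 (SE 0.20 for each), the smallest of the 6 targets in each mutant. Without M1 replicate 2 the M1 difference of IDH2 was 0.68, and without M1 replicate 1 it was 0.038.

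**Figure D2:**
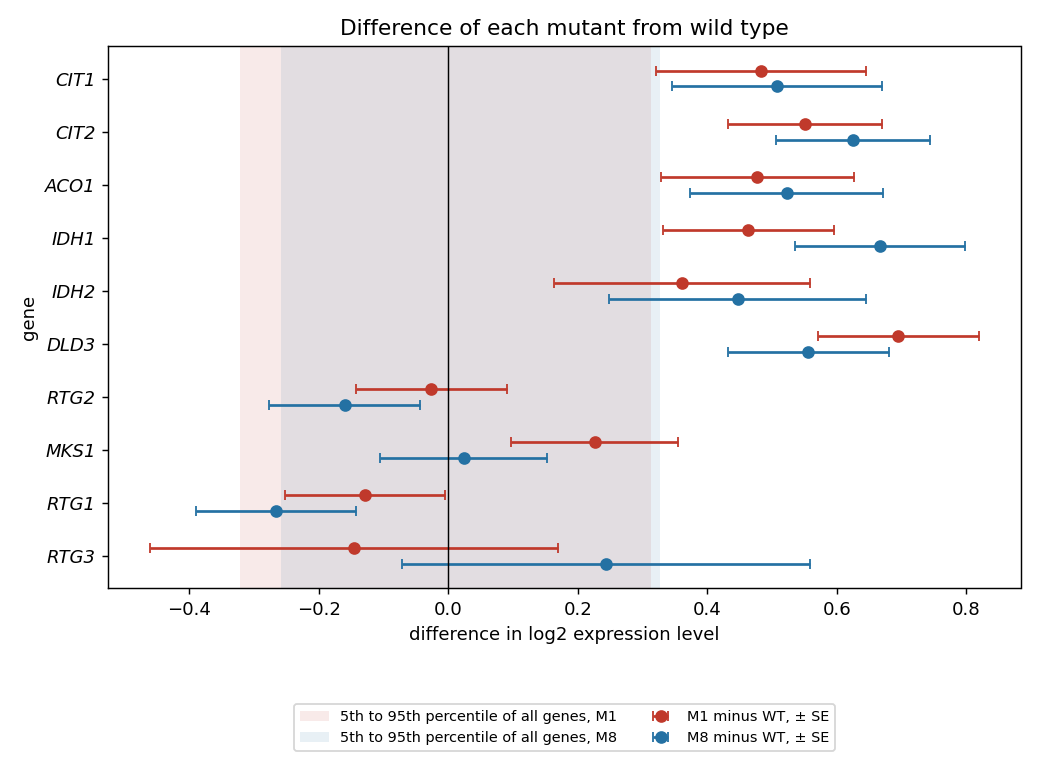
Difference in log2 level from WT (x axis) for M1 and M8, with bars of 1 SE; shaded bands span the 5th to 95th percentile of all 5656 genes, which is -0.32 to 0.31 for M1 and -0.26 to 0.33 for M8. The 6 targets lie to the right of the bands in both mutants, from 0.36 for IDH2 to 0.70 for DLD3 in M1.

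Taken array by array, the 6 targets lay above both WT arrays in 6 of 6 cases on M1 replicate 1 and 5 of 6 on M1 replicate 2. On M8 replicate 1 it was 6 of 6, and on M8 replicate 2 also 6 of 6. The share of all genes that did so on a single array was not computed. The targets were chosen on this comparison, so the counts are descriptions only. The median target stood 0.65 and 0.32 above the WT mean on the M1 arrays and 0.55 and 0.49 on the M8 arrays, while the median of all genes stood between -0.014 and 0.053. The M1 duplicates differed in size for the mitochondrial targets more than for CIT2 and DLD3. The gap was 0.65 for IDH2, 0.47 for CIT1, 0.31 for IDH1 and 0.29 for ACO1, against 0.024 for CIT2 and 0.13 for DLD3. Of all genes, 93.2% had a smaller M1 gap than IDH2 and 6.54% a smaller one than CIT2. Without M1 replicate 1 the M1 median of the targets was 0.32, and without M1 replicate 2 it was 0.65.

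Among the regulators, RTG2 (YGL252C), the gene of the sensor that releases the pathway, had 8.51 and 8.50 in M1 and 8.41 and 8.34 in M8, against 8.62 and 8.44 in WT. The M1 arrays fell within the WT range and the M8 arrays just below it. RTG2 differed by -0.026 in M1 and -0.16 in M8 (SE 0.12 for each), and without WT replicate 1 these were 0.064 and -0.070. Without WT replicate 2 they were -0.12 and -0.25.

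MKS1 (YNL076W), the gene of the inhibitor, had 7.13 and 7.27 in M1 and 7.01 and 6.99 in M8, against 7.10 and 6.85 in WT. M1 stood just above WT, and M8 lay between the WT arrays. The differences were 0.23 in M1 and 0.024 in M8 (SE 0.13 for each). They depended on which WT array was kept, at 0.35 and 0.15 without WT replicate 1 and 0.099 and -0.10 without WT replicate 2.

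RTG1 (YOL067C), which encodes the smaller partner of the Rtg1 and Rtg3 pair, had 3.54 and 3.77 in M1 and 3.57 and 3.48 in M8, against 3.76 and 3.82 in WT. The M8 arrays lay below WT and an M1 array overlapped it. RTG1 differed by -0.13 (SE 0.12) and -0.27 (SE 0.12). Only 13.0% of the 9275 probe sets were dimmer than this one, and whether it read above background was not tested.

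RTG3 (YBL103C), which encodes the other partner of that pair, had 7.07 and 5.91 in M1 and 6.86 and 6.89 in M8, against 6.60 and 6.66 in WT. Its M1 arrays fell on opposite sides of WT, and their gap of 1.16 exceeded that of 99.2% of all genes. The M8 arrays were slightly above WT. The difference was -0.15 in M1 and 0.24 in M8 (SE 0.32 for each). Both SEs take in the M1 gap, while the duplicates stood 0.028 apart in M8 and 0.053 apart in WT. The M1 difference was -0.73 without M1 replicate 1 and 0.43 without M1 replicate 2, so no direction of RTG3 in M1 can be given.

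Whether the mutants differed from each other was asked next. M8 minus M1 was not itself used to choose the genes, but the differences from WT that make it up were. The test below is therefore not independent of that choice. By limma's moderated test with Benjamini-Hochberg adjustment over 5656 genes, M8 minus M1 passed for 0 of the 10 genes and 0% of all genes. The ordinary linear model called 0 as well, and at an unadjusted p under 0.05 there were 0 of the 10, against 6.44% of all genes. The adjusted p-values of the 10 from limma lay between 0.721 and 0.974. For the targets, M8 minus M1 was 0.074 for CIT2 (95% interval -0.20 to 0.35) and -0.14 for DLD3 (-0.43 to 0.15). It was 0.025 for CIT1 (-0.35 to 0.40) and 0.046 for ACO1 (-0.30 to 0.39). For the isocitrate dehydrogenase subunits it was 0.20 for IDH1 (-0.10 to 0.51) and 0.086 for IDH2 (-0.37 to 0.55).

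Over the targets the lowest interval end was -0.43, for DLD3, and the highest was 0.55, for IDH2. Each end belongs to its own gene and is not a detection limit for the targets in general. The narrowest interval of a target was that of CIT2, from -0.20 to 0.35. The smallest difference detectable with 2 arrays a group was not tested. IDH1 was the target whose M8 arrays both lay above both M1 arrays, as 19.5% of all genes did. Among regulators, RTG2 at -0.13 (-0.41 to 0.14) and MKS1 at -0.20 (-0.50 to 0.097) had both M8 arrays below both M1 arrays, as 18.4% of all genes did. RTG1 had -0.14 (-0.42 to 0.15) and RTG3 0.39 (-0.34 to 1.12). The RTG3 difference depended on which M1 array was kept. Without M1 replicate 1 its M8 minus M1 difference was 0.97, and without M1 replicate 2 it was -0.19. Either omission leaves a single M1 array and so no M1 spread, and only the size of the difference is given. Without M1 replicate 2 the differences of CIT1, ACO1 and IDH2 turned to -0.21, -0.099 and -0.24. The signs of CIT1 and ACO1 also turned under quantile normalization.

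**Figure D3:**
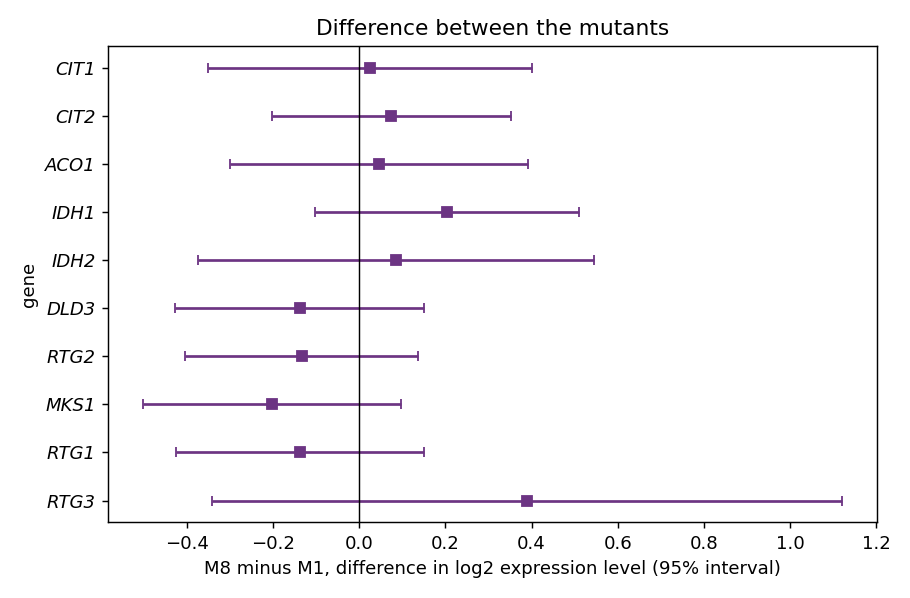
M8 minus M1 in log2 level (x axis) for the 10 genes, with 95% intervals from the limma fit of all 6 arrays. Every interval crosses 0, and that of RTG3 is the widest, from -0.34 to 1.12.

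The next question was whether other genes of the pathway and of the reactions around it moved beside the targets. Over all genes limma called 0 (0%) in M1, 0 (0%) in M8 and 4 (0.0707%) for the mean of both mutants against WT, and none of the 4 belongs to the lists here. At an unadjusted p under 0.05 there were 485 genes (8.57%), 399 (7.05%) and 452 (7.99%), while the ordinary linear model called 0 in each. The calls depended on the M1 duplicates. Without M1 replicate 1 limma called 382 of all genes in M1, and without M1 replicate 2 it called 62. When M1 arrays did not enter the fit, M8 had 23 calls.

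Of 7 further genes of retrograde signalling, limma called 0 in either mutant. At an unadjusted p under 0.05 there were 0 in M1, against 8.57% of all genes, and 1 higher in M8, against 4.74%. LST8, a subunit of the TOR complexes and a negative regulator of the response, was that gene. It had 7.34 and 7.18 in M1 and 7.46 and 7.53 in M8, against 7.07 and 7.13 in WT, with differences of 0.16 (SE 0.12) and 0.39 (SE 0.12, limma adjusted p = 0.569). BMH1, a 14-3-3 gene, differed by 0.27 (SE 0.14) in either mutant. Its paralog BMH2 had 10.68 and 9.94 in M1, on either side of WT, and 10.71 and 10.87 in M8, against 10.12 and 10.52 in WT. BMH2 differed by -0.0075 in M1 and 0.47 in M8 (SE 0.24 for each), the list's largest M8 difference. TOR2 differed by 0.14 and 0.10. The medians of the list were 0.055 and 0.10.

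Of 11 genes for the remaining steps of the tricarboxylic acid cycle, from 2-oxoglutarate back to oxaloacetate, 5 had a mean above WT in M1 and 10 in M8. Both arrays of the mutant lay above both WT arrays for 4 genes in M1, against 22% of all genes, and for 6 in M8, against 29%. All 4 mutant arrays did for 4 of the 11, against 11.9% of all genes. Of the 11, limma called 0 in either mutant. At an unadjusted p under 0.05 there were 0, against 8.57% of all genes in M1 and 7.05% in M8. The medians were -0.0145 in M1 and 0.14 in M8. MDH1, the mitochondrial malate dehydrogenase gene, had 9.82 and 9.75 in M1 and 9.85 and 9.79 in M8, against 9.58 and 9.58 in WT, so all mutant arrays lay above WT by a small margin. FUM1, the fumarase gene, differed by 0.31 in M1 and 0.16 in M8 (SE 0.14 for each), and LPD1, the dihydrolipoamide dehydrogenase gene, by 0.25 and 0.15. SDH3, a membrane subunit gene of succinate dehydrogenase, differed by -0.20 (SE 0.11) and -0.12 (SE 0.11). SDH2 and SDH4 were named after their values were seen. They were the list's 2 genes with an unadjusted p under 0.05 between the mutants, against 6.44% of all genes. Their M8 minus M1 was 0.72 and 0.60, with a limma adjusted p = 0.721 for each. Both genes were lowest on M1 replicate 2. SDH2 had 8.41 and 8.39 in M8, against 8.22 and 7.14 in M1, and SDH4 had 9.73 and 9.82 in M8, against 9.53 and 8.82 in M1.

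**Figure D4:**
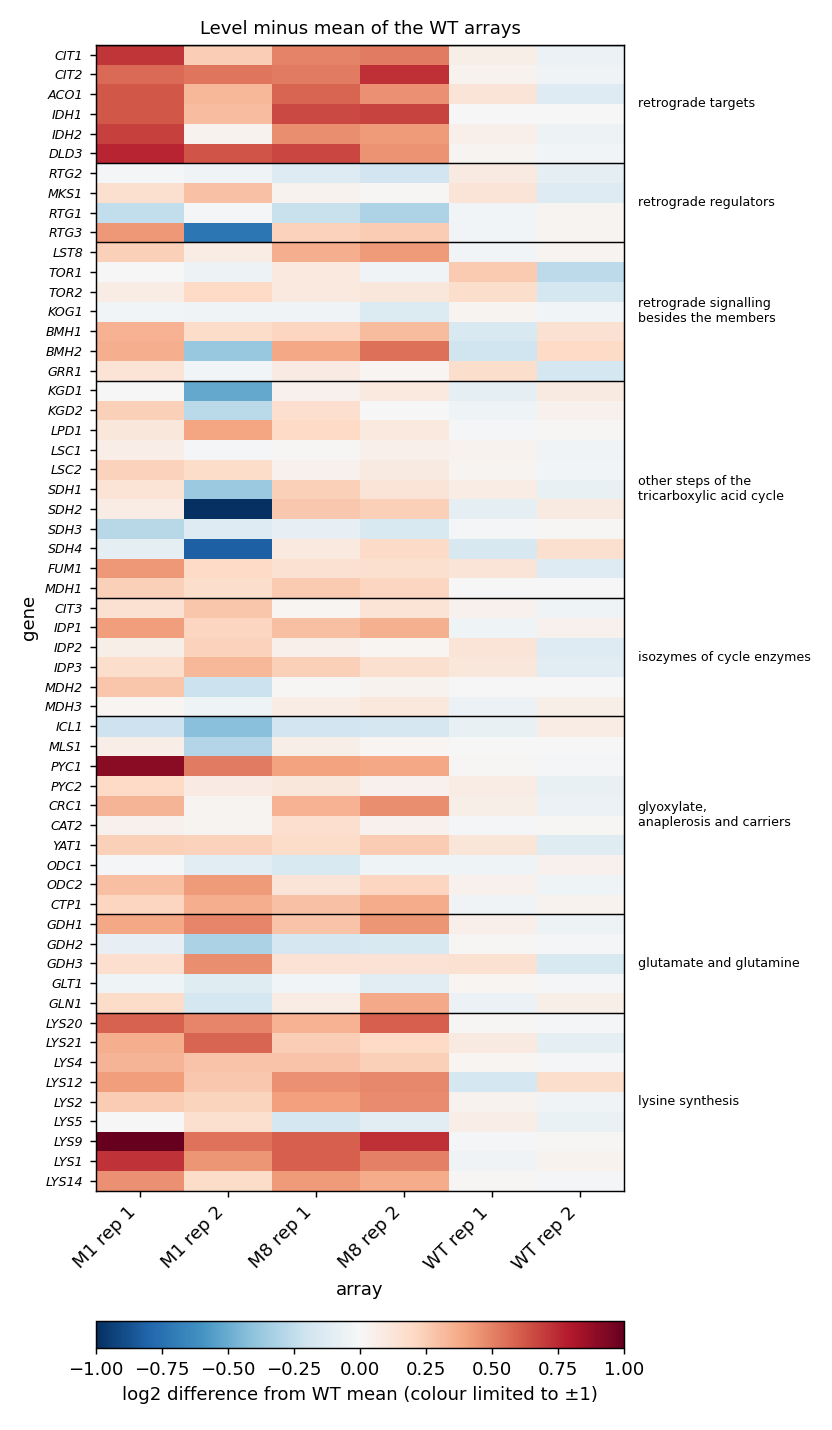
Log2 level on each array minus the mean of the WT arrays (colour, limited to ±1) for the genes of 8 lists, with M1, M8 and WT columns from left to right. Target and lysine rows are mostly red on the 4 mutant arrays, while SDH2, SDH4 and RTG3 are darkest blue on M1 replicate 2.

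Isozymes of the cycle enzymes were measured for 6 genes, and limma called 0. In M1 as in M8, 1 was higher at an unadjusted p under 0.05, against 5.11% and 4.74% of all genes. That gene was IDP1, the mitochondrial NADP-dependent isocitrate dehydrogenase, which also makes 2-oxoglutarate. IDP1 had 10.28 and 10.08 in M1 and 10.17 and 10.23 in M8, against 9.82 and 9.91 in WT. Its differences were 0.31 (SE 0.12, limma adjusted p = 0.542) and 0.33 (SE 0.12, adjusted p = 0.660). CIT3, a minor mitochondrial citrate and methylcitrate synthase gene, differed by 0.22 and 0.079, the peroxisomal IDP3 by 0.25 and 0.20, and the cytosolic IDP2 by 0.14 and 0.033.

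Among 10 genes of the glyoxylate cycle, anaplerosis and mitochondrial carriers, limma called 0, with 3 higher and 1 lower in M1 and 3 higher in M8 at an unadjusted p under 0.05. That threshold was passed by 5.11% of all genes in the higher and 3.47% in the lower direction in M1, and by 4.74% in the higher direction in M8. PYC1, a pyruvate carboxylase gene that supplies oxaloacetate to the cycle, had the largest difference. Its levels were 10.05 and 9.67 in M1 and 9.55 and 9.54 in M8, against 9.16 and 9.14 in WT. The difference was 0.71 (SE 0.14, limma adjusted p = 0.280) in M1 and 0.39 (SE 0.14, adjusted p = 0.660) in M8. The citrate carrier gene CTP1 differed by 0.29 and 0.33 (SE 0.12), and the 2-oxodicarboxylate carrier gene ODC2 by 0.36 and 0.17 (SE 0.11). The carnitine carrier gene CRC1 differed by 0.19 and 0.41 (SE 0.14). ICL1, the isocitrate lyase gene and the list's lower gene in M1, named after its value was seen, differed by -0.31 and -0.18.

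The enzymes that draw on 2-oxoglutarate were examined last. GDH1, the NADP-dependent glutamate dehydrogenase gene that turns 2-oxoglutarate into glutamate, had 12.19 and 12.30 in M1 and 12.09 and 12.26 in M8, against 11.86 and 11.76 in WT. All mutant arrays lay above WT, with differences of 0.44 (SE 0.12, limma adjusted p = 0.441) and 0.36 (SE 0.12, adjusted p = 0.638). GDH2, which works in the opposite direction, differed by -0.20 and -0.16 (SE 0.12), GDH3 by 0.32 and 0.14, and the glutamine synthetase gene GLN1 by 0.0028 and 0.23. Of the 5 glutamate and glutamine genes, limma called 0 in both mutants. GDH1 alone had an unadjusted p under 0.05, as 5.11% of all genes did in the higher direction in M1 and 4.74% in M8.

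Lysine synthesis starts from 2-oxoglutarate and acetyl-CoA, and MKS1 is also known as LYS80, a repressor of lysine genes. This list was chosen with earlier results of these data known. Of 9 lysine genes limma called 0. At an unadjusted p under 0.05, 7 were higher in each mutant, against 5.11% of all genes in M1 and 4.74% in M8. The medians were 0.34 in M1 and 0.44 in M8. In M8, 1 of the 9 was lower, at -0.14, with both arrays below both WT arrays, against 19.1% of all genes. LYS9 differed by 0.78 and 0.67 (SE 0.17), LYS1 by 0.59 and 0.55 (SE 0.13), LYS20 by 0.54 and 0.47 (SE 0.13) and LYS12 by 0.34 and 0.47 (SE 0.14). A probe set that reads LYS20 together with its paralog LYS21 differed by 0.33 and 0.58.

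The genes beside each target on the chromosome were compared with it, a comparison chosen after values were seen. The arrays measured 10 of the 12 neighbours, with a median of -0.072 in M1 and -0.021 in M8. The highest was NCE103 (YNL036W), the carbonic anhydrase gene, which is transcribed away from IDH1 from the stretch between them. NCE103 had 9.28 and 9.11 in M1 and 8.73 and 8.76 in M8, against 8.03 and 8.09 in WT. It was higher by 1.14 in M1 and 0.69 in M8 (SE 0.12 for each), and was among the 4 genes called for the mean of the mutants (limma adjusted p = 0.0418). No gene was called in that comparison when any WT or M8 array was left out, with all one-gene probe sets, with quantile normalization, by the ordinary linear model or with the replicate block. Without M1 replicate 1 there were 51 calls and without M1 replicate 2 there were 132. IDH1 differed by 0.46 in M1 and 0.67 in M8. The other 9 neighbours ranged from -0.27 to 0.093 in M1 and from -0.42 to 0.24 in M8. The lowest value in each belonged to SUF10, a tRNA gene beside CIT1.

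**Figure D5:**
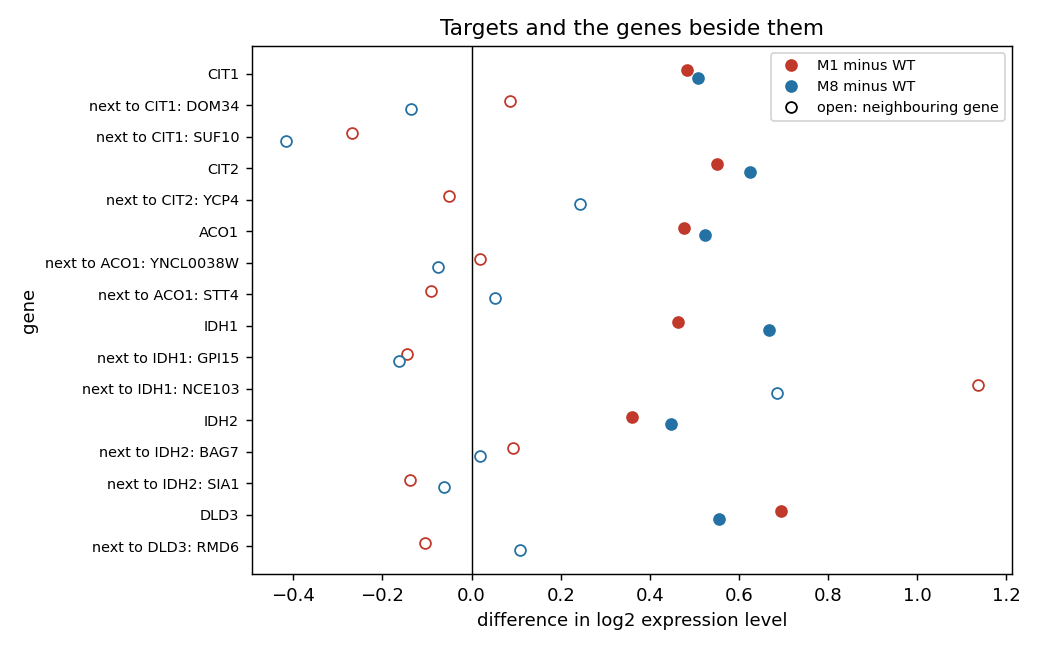
Difference in log2 level from WT (x axis) of the 6 targets (filled) and their 10 measured neighbours (open), M1 in red and M8 in blue. NCE103, beside IDH1, is the neighbour that lies with the targets, at 1.14 in M1 and 0.69 in M8.

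The genes whose pattern over the 6 arrays was most like that of CIT2 were ALD4, STI1, LYS20, AVT6 and GLK1. Likeness was the root mean square difference from CIT2 after each gene was centred on its own mean. That difference was 0.048 for ALD4, the mitochondrial aldehyde dehydrogenase gene, and 0.066 for STI1, an Hsp90 co-chaperone gene. It was 0.075 for LYS20, 0.079 for AVT6, a vacuolar amino acid exporter gene, and 0.085 for the glucokinase gene GLK1. ALD4 differed from WT by 0.49 in M1 and 0.62 in M8. Among the other members IDH1 was nearest to CIT2 at 0.11, in place 16 of all genes. The other targets came later, with ACO1 in place 43, CIT1 in 56, DLD3 in 77 and IDH2 in 420. RTG3 was the farthest member at 0.44.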

How the data were processed

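The deposited table gave log2 expression levels for 9275 probe sets on 6 arrays (2 each of M1, M8 and WT). Per the submitters' processing notes RMA and oligo were used, with no version or setting stated. The medians of the arrays, 6.48 to 6.52, show that the authors had scaled them before deposit, which hides any shift of all messages. Having 2 arrays a group limits the precision. A single gene was given for 6504 probe sets by the platform annotation. The 2771 with several genes or none were left out. The brightest probe set was taken for 315 genes with more than 1, which left 5656 genes. Their identifiers were matched to the R64 gene table, used for names and neighbours.

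Group means of all 6 arrays were fitted with limma 3.58.1 in R 4.3.3 (lmFit, eBayes, 3 residual degrees of freedom). P-values were two-sided, adjusted by the Benjamini-Hochberg method over 5656 genes, and called under 0.05. The calculation was tested on simulated data. Alternatives were other scalings, probe set choices, filters, variance models, a replicate block and the omission of each array. The members and lists were chosen with earlier results of these data known. Members and TRA1 were always named, with up to 4 genes of each other list by the largest absolute mean difference. Exceptions, chosen after their values were seen, were ICL1, SDH2, SDH4 and the neighbours of the targets.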

Additional observations from a re-analysis of the deposited data

How the results depend on the processing

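The 6 targets kept a median above WT under all alternatives run, at 0.46 to 0.53 in M1 and 0.52 to 0.54 in M8 apart from the omission of arrays. With each array left out in turn, the median lay between 0.32 and 0.65 in M1, between 0.49 and 0.62 in M8, and between -0.15 and 0.22 for M8 minus M1. The number of genes called in M1 (0 with all arrays) was 3 with the mean of a gene's probe sets, with median centring, with the dimmest 25% of genes left out and with a trended robust prior. For the mean of the mutants the 4 calls became 0 with all one-gene probe sets, quantile normalization or the ordinary linear model. In M8, 23 were called when the M1 arrays stayed outside the fit. With each array left out in turn, calls ranged from 0 to 382 in M1, 0 to 23 in M8, 0 to 748 for M8 minus M1 and 0 to 132 for the mean. Where a group kept 1 array, that array was assumed to vary like the others. RTG1 had no value under that filter. For M8 minus M1, CIT1 had -0.031 and ACO1 -0.0048 under quantile normalization. Over the omission of each array, M8 minus M1 ran from -0.21 to 0.26 for CIT1, -0.099 to 0.19 for ACO1, -0.24 to 0.41 for IDH2 and -0.19 to 0.97 for RTG3, all from M1 replicate 2 to M1 replicate 1 left out, and from -0.028 to 0.18 for CIT2, without M8 replicate 2 and 1. ACO1 had -0.017 without M8 replicate 1. The cause of these changes was not tested.

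The labels number the arrays of each group 1 and 2. Deviations from the group means of same-numbered arrays correlated at -0.31 for M1 and WT, 0.30 for M8 and WT and -0.11 for M8 and M1, so the numbers were not taken to pair the samples. With the replicate block 0 genes were called for the mean of the mutants, and 0 in the other comparisons. With the M1 numbers crossed, an alternative chosen after seeing the data, 5 were called in M1 and 4 for the mean. RMA values carry no detection call, and signal over background was not used here.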

Other observations

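The CCAAT-binding complex Hap2/3/4/5, which activates the mitochondrial targets in respiring cells, showed no common direction at the message level. HAP4, the gene of its regulated activating subunit, had 8.66 and 8.58 in M1 and 8.80 and 8.71 in M8, against 8.77 and 8.56 in WT, so the arrays of each mutant overlapped those of WT. HAP3 differed by -0.31 in M1 and -0.20 in M8 (SE 0.12 for each), HAP5 by 0.048 and 0.42 (SE 0.17), and HAP2 by 0.052 and 0.21 (SE 0.17). Limma called 0 of the 4, with 1 lower in M1 and 1 higher in M8 at an unadjusted p under 0.05. That threshold was passed by 3.47% of all genes in the lower direction in M1 and by 4.74% in the higher direction in M8.

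Peroxisomal fatty acid oxidation genes stood near WT although CIT2 encodes a peroxisomal enzyme. Of 8 genes limma called 0. At an unadjusted p under 0.05 there were 0, against 8.57% of all genes in M1 and 7.05% in M8. The medians were -0.024 in M1 and 0.039 in M8. PXA2 differed by 0.23 and 0.17, POX1 by 0.18 and 0.13, FOX2 by 0.16 and 0.14, and PEX11, the gene of a peroxisome division protein, by -0.21 and -0.025. Among other lactate dehydrogenase genes, DLD1, whose 4 mutant arrays lay above both WT arrays, differed by 0.19 and 0.057, DLD2 by 0.085 and -0.14, and the L-lactate dehydrogenase gene CYB2 by -0.12 and 0.0047. SER33, a phosphoglycerate dehydrogenase that can also make D-2-hydroxyglutarate, had 7.57 and 7.50 in M8 and 7.77 and 7.94 in M1, against 7.84 and 7.76 in WT. Its M8 minus M1 difference was -0.32 (limma adjusted p = 0.721).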
